A study of Mus musculus with 18 samples.

Results

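The genes described here are p53 (Trp53 in mouse) and 9 genes around it: Mdm2, Cdkn2a, Cdkn1a, Ccng1, Bax, Bbc3, Pmaip1, Sesn1 and Trp53inp1. They were chosen by name, as the p53 gene and genes widely used as its readouts, from the 23420 genes of the count tables. All 10 had a row in both tables, and all 10 were among the 14162 genes with enough counts to be tested. The p53 protein is a transcription factor that is stabilised by DNA damage and other stresses. It switches on the cell cycle inhibitor p21 (Cdkn1a), mediators of cell death such as Bax, Puma (Bbc3) and Noxa (Pmaip1), metabolic regulators such as sestrin 1 (Sesn1), and its own inhibitor Mdm2, which closes a feedback loop. In fibroblasts this pathway is known for arrest and senescence, and as a barrier to reprogramming towards pluripotency. The amount of p53 is set mostly at the protein level, which was not measured here.

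Cardiac fibroblasts from neonatal CD1 mice were used as primary cultures and profiled by bulk RNA sequencing. In every group used here the cells also carried MGT, a retrovirus with Mef2c, Gata4 and Tbx5 on 1 transcript, which drives part of the fibroblasts towards induced cardiomyocytes (direct cardiac reprogramming). The second set of samples has 12 libraries in 4 groups of 3: a control short hairpin RNA (shNT), shMtfr1l, shOpa1, and both hairpins together (shMtfr1l+shOpa1, called the double knockdown below). Mtfr1l encodes a mitochondrial protein linked to the shape of the mitochondrial network, and Opa1 encodes the GTPase that fuses the inner mitochondrial membrane and keeps the cristae tight. Replicates 1, 2 and 3 of each group are titled day 7, day 8 and day 9, and the labels name them biological replicates. Their spread therefore includes the labelled day, and the genotype field of the Opa1 libraries counts up with it (shOpa1, shOpa2, shOpa3) while the titles say shOpa1 throughout. The first set adds 1 reprogramming sample with shNT and 1 with shMtfr1l, both of day 7, each with 3 count columns. Whether those columns are separate cultures or repeat measurements of 1 culture is not given in the sources. No sorting of the cells is named, so each value is a mean over converted and unconverted cells.

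Library totals in the second set ran from 16205862 to 25317069 counts. Levels are given as CPM (counts scaled to the library total), adjusted by the trimmed mean of M values (TMM), and fold changes come from edgeR's quasi-likelihood test with p-values adjusted over all 14162 genes (Benjamini-Hochberg, called under 0.05). The targeted genes followed their labels. Mtfr1l was at 71.9 ± 4.17 CPM (SD, n = 3) in shNT, 16.4 ± 2.88 in shMtfr1l and 27.2 ± 4.15 in the double knockdown. Opa1 was at 63.1 ± 8.33 CPM in shNT, 8.96 ± 3.16 in shOpa1 and 18.3 ± 2.34 in the double knockdown. With both hairpins each target was less reduced than with its own hairpin alone (1.66-fold higher for Mtfr1l, adjusted p = 5.27e-06; 2.04-fold higher for Opa1, adjusted p = 0.00745). The summed level of 8 fibroblast markers, most of it from 3 collagen genes, was between 31330 and 37180 CPM in the 12 libraries, and none of the 8 was at 0.

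Measured per kilobase of exon, so that genes can be compared, the 10 genes covered a wide range in shNT. Ccng1 was at 205 ± 2.75 CPM per kilobase, Bax at 196.5 ± 25.5 and Cdkn1a at 176 ± 4.07, and Bax did not differ from either of the others beyond its own spread. A middle group followed, with Trp53 at 42.0 ± 1.56, Mdm2 at 30.2 ± 0.667, Trp53inp1 at 21.9 ± 1.29, Bbc3 at 13.9 ± 1.04 and Sesn1 at 12.3 ± 0.828 CPM per kilobase. Bbc3 and Sesn1 lay within 2 SDs of each other. Cdkn2a at 7.26 ± 1.21 and Pmaip1 at 2.25 ± 0.57 CPM per kilobase were the lowest. In shOpa1 the order at the top was turned around, with Cdkn1a at 236 ± 5.43 CPM per kilobase and Ccng1 at 147 ± 2.88.

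The promoters of the 4 members whose change was clearest are shown here, Cdkn1a and Mdm2, which were higher in the Opa1 groups, and Ccng1 and Sesn1, which were lower. Each window runs from 250 bases before to 50 bases after a transcription start given by RefSeq (GRCm38.p6) and is written 5′ to 3′ along the gene's strand. Capitals mark matches to the p53 decamer, the 10-base repeat of which a p53 response element holds 2, and matches to such an element with at most 13 bases between its decamers and at most 2 mismatches in all. The decamer reads the same on both strands, so 1 search covers both.
Cdkn1a, chr17:29090729-29091028, plus strand: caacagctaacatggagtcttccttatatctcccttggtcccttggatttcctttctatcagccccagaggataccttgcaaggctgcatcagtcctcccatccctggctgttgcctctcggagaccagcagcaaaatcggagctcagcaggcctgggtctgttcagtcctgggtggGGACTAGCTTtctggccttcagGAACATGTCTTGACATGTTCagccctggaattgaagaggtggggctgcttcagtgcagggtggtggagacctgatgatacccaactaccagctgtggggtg
Mdm2, chr10:117710709-117711008, minus strand: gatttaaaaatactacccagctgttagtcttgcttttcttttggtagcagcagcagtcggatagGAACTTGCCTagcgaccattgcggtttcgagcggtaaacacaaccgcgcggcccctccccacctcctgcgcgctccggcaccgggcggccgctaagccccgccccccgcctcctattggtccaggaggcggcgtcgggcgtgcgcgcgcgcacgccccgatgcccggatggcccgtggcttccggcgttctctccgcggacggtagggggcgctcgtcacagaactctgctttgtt
Ccng1, chr11:40755237-40755536, minus strand: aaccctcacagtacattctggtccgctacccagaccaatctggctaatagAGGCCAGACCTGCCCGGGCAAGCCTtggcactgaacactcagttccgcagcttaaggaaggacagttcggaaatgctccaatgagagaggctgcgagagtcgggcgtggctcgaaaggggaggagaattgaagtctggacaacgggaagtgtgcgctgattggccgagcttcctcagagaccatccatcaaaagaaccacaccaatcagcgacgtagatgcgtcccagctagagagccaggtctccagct
Sesn1, chr10:41887189-41887488, plus strand: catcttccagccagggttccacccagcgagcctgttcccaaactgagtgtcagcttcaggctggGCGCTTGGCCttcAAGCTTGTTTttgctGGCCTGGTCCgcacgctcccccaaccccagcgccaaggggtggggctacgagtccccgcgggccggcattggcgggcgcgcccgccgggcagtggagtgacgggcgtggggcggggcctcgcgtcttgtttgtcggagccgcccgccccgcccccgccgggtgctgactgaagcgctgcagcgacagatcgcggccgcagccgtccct
The Cdkn1a window, at the upstream one of its 2 RefSeq starts, holds an element 51 bases before the start with 0 bases between the decamers and 1 mismatch, and its first decamer also pairs with another exact decamer 73 bases before the start. The Ccng1 window holds an element 195 bases before the start with 0 bases between the decamers and 1 mismatch, overlapped by a second match 200 bases before the start. The Sesn1 window, at the downstream one of its 2 starts, holds elements 186 and 173 bases before the start that share a decamer and have 2 mismatches each, and the Mdm2 window holds 1 exact decamer 186 bases before the start. An exact decamer was found in 6 of the 13 windows of the 8 members with a RefSeq window, and in 8.36% of all 32851 windows. A full element was found in 4 of the 13 and in 4.08% of all. Among the windows not shown, that of Bax holds full elements 216 and 201 bases before the start, and that of Trp53 an exact decamer 75 bases before it. Neither gene was called against shNT. Matches thus stand before genes that were higher, genes that were lower and genes that were not called, and no binding was measured.

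In shMtfr1l cells none of the 10 genes was called against shNT, higher or lower, while 5.56% of all tested genes were called higher and 5.19% lower. At an unadjusted p under 0.05 there were 2, Bax and Ccng1, and DESeq2 called 1, Bax. In shOpa1 cells 2 of the 10 were higher than in shNT (Cdkn1a and Mdm2; 14.3% of all tested genes were called higher) and 4 were lower (Ccng1, Sesn1, Trp53inp1 and Pmaip1; 15.1% of all were called lower). In the double knockdown 2 of the 10 were higher than in shNT (Cdkn1a and Mdm2; 11.2% of all) and 3 were lower (Ccng1, Sesn1 and Trp53inp1; 11.9% of all). Trp53 itself was called in no comparison. The 3 comparisons share the shNT libraries. In bulk RNA, fewer cells of a type and less RNA per cell cannot be told apart.

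**Figure D1:**
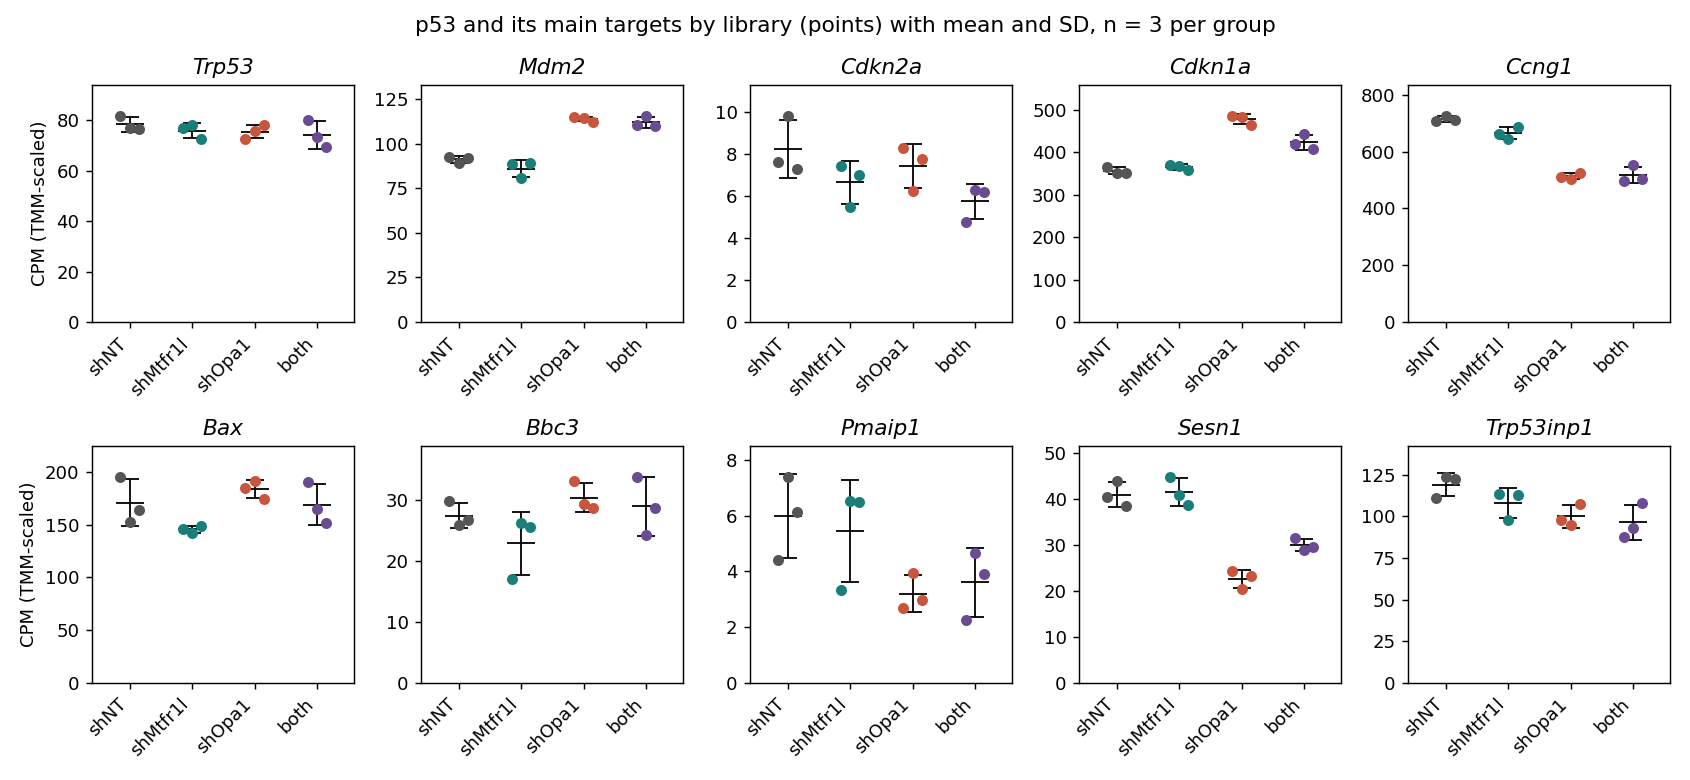
Level of each of the 10 genes in each of the 12 libraries (points; y axis, TMM-scaled CPM from 0) by group, with the mean and SD of 3 libraries; "both" is shMtfr1l+shOpa1. Cdkn1a and Mdm2 stand higher and Ccng1 and Sesn1 lower in all 6 libraries with shOpa1 than in all 6 without it, while Trp53 overlaps in all groups. The share of all tested genes that separate in this way was not computed.

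**Figure D2:**
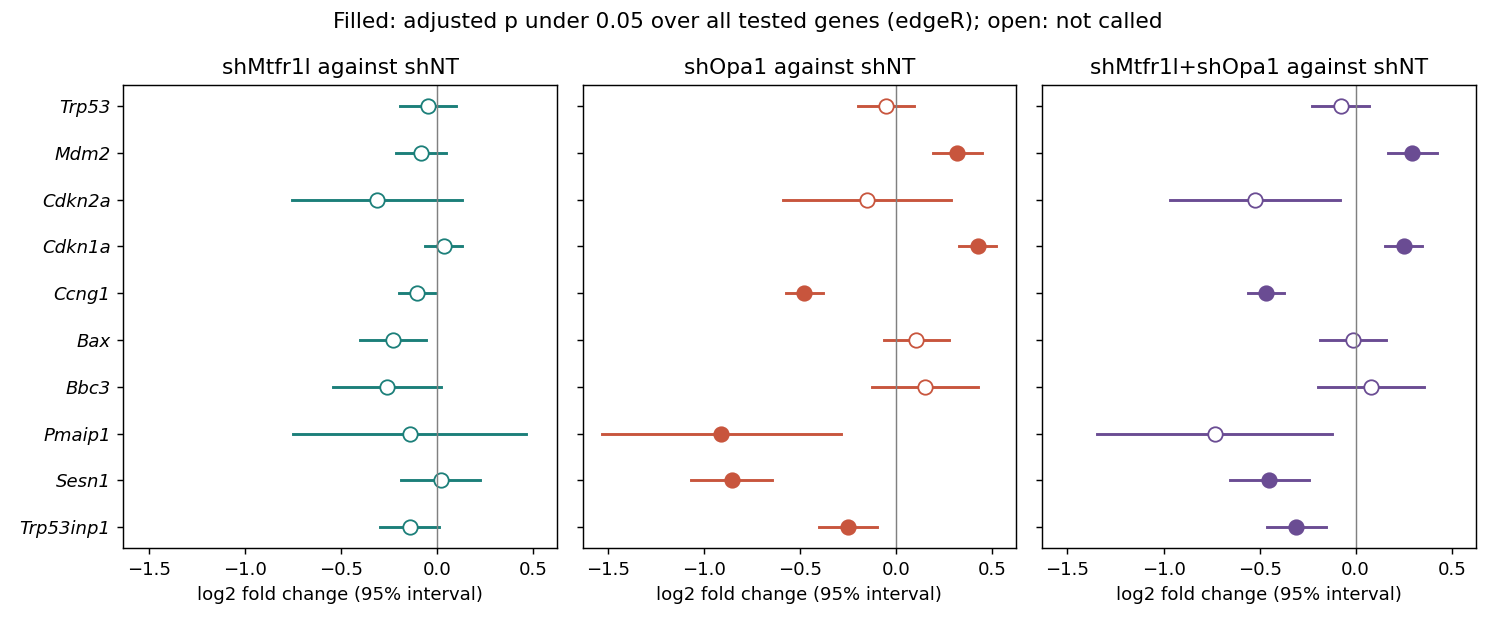
Log2 fold change of each gene against shNT (x axis; bars, 95% intervals of the edgeR fit), 1 panel per knockdown. Filled points passed an adjusted p of 0.05 over all tested genes: none in shMtfr1l, 6 in shOpa1 and 5 with both hairpins.

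Trp53 (chr11:69580359-69591873, mm10) was at 81.8, 76.9 and 76.7 CPM in shNT, 77.1, 78.2 and 72.5 in shMtfr1l, 72.8, 76.0 and 78.0 in shOpa1, and 80.2, 73.3 and 69.3 with both hairpins. The 4 groups overlapped throughout. The difference from shNT was -0.05 on the log2 scale in shMtfr1l (95% interval -0.19 to 0.10), -0.05 in shOpa1 (-0.20 to 0.09) and -0.08 with both hairpins (-0.22 to 0.07). These intervals leave room for changes of the mRNA up to the bounds given. A processed pseudogene of Trp53 exists in the mouse genome, and reads that map to both were not counted.

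Mdm2 (chr10:117688905-117710716) encodes the ubiquitin ligase that marks p53 for degradation and is itself a p53 target. It was at 92.8, 89.1 and 92.4 CPM in shNT, 88.7, 80.8 and 89.2 in shMtfr1l, 114.9, 114.4 and 112.6 in shOpa1, and 110.5, 115.8 and 109.9 with both hairpins. All 6 libraries with shOpa1 were above all 6 without it. Mdm2 rose by 0.32 ± 0.06 log2 (SE) in shOpa1 against shNT (1.25-fold, adjusted p = 0.000135) and by 0.29 ± 0.06 in the double knockdown (1.23-fold, adjusted p = 0.000532). In shMtfr1l it differed by -0.08 log2 (95% interval -0.21 to 0.05, adjusted p = 0.497). Mdm4, the partner of Mdm2 that blocks p53 activity, and Ppm1d, the phosphatase that turns p53 signalling off, belong to the control genes given further on and were not called, at 0.02 and 0.01 log2 in shOpa1 (adjusted p = 0.915 and 0.957).

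Cdkn2a (chr4:89274473-89294619) yields p19Arf, which holds Mdm2 back from p53, and the cyclin-dependent kinase inhibitor p16Ink4a, and the counts of its row cover both transcripts. It was low, at 7.63, 9.82 and 7.28 CPM in shNT, 7.43, 5.49 and 7.02 in shMtfr1l, 8.27, 6.23 and 7.77 in shOpa1, and 4.77, 6.26 and 6.20 with both hairpins. The double knockdown lay below all shNT libraries, at -0.52 ± 0.22 log2 (SE), but was not called (adjusted p = 0.0794). With 94 to 228 counts per library the gene was measured less precisely than the others except Pmaip1.

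Cdkn1a (chr17:29090986-29100722) encodes p21, the cyclin-dependent kinase inhibitor that carries out the arrest set by p53. It was at 365.4, 351.3 and 350.9 CPM in shNT, 368.8, 368.0 and 357.2 in shMtfr1l, 485.5, 482.5 and 465.1 in shOpa1, and 419.6, 442.9 and 407.6 with both hairpins. The shOpa1 libraries were the highest, the double knockdown came between, and shNT and shMtfr1l overlapped. Cdkn1a rose by 0.42 ± 0.05 log2 (SE) in shOpa1 (1.34-fold, adjusted p = 4.1e-09) and by 0.25 ± 0.05 in the double knockdown (1.19-fold, adjusted p = 0.000111). In shMtfr1l the difference was 0.04 log2 (95% interval -0.06 to 0.13, adjusted p = 0.744).

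Ccng1 (chr11:40748552-40755286) encodes cyclin G1, a p53 target that recruits a phosphatase to Mdm2. It was at 707.2, 725.8 and 712.2 CPM in shNT, 663.6, 644.8 and 686.1 in shMtfr1l, 512.0, 504.3 and 524.2 in shOpa1, and 496.1, 551.0 and 505.1 with both hairpins. The libraries with shOpa1 were all below those without it, the opposite of Cdkn1a and Mdm2. Ccng1 fell by 0.48 log2 in shOpa1 (SE 0.05, 1.39-fold, adjusted p = 1.62e-10) and by 0.47 log2 in the double knockdown (SE 0.05, 1.38-fold, adjusted p = 7.08e-10). The shMtfr1l libraries lay below all shNT libraries by -0.11 log2 (95% interval -0.20 to -0.01), which was not called (adjusted p = 0.166).

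Among the mediators of cell death, Bax (chr7:45461695-45466898) encodes the protein that permeabilises the outer mitochondrial membrane. It was at 195.5, 152.6 and 164.2 CPM in shNT, 145.4, 142.2 and 148.8 in shMtfr1l, 185.0, 191.2 and 174.1 in shOpa1, and 190.0, 164.9 and 151.4 with both hairpins. The shMtfr1l libraries were the lowest and did not overlap with shNT, where replicate 1 stood well above the other 2. The difference, -0.23 ± 0.08 log2 (SE), was not called (adjusted p = 0.089), but passed with the replicate number as a block (adjusted p = 0.0379) and without shNT replicate 2 (adjusted p = 0.0127). Over all alternatives it ran from -0.31 to -0.12 log2 (adjusted p from 0.00348 to 0.42). In shOpa1 Bax differed by 0.10 log2 (adjusted p = 0.379), and without shNT replicate 1 it was called higher (adjusted p = 0.0243). Over all alternatives the difference in shOpa1 ran from -0.004 to 0.21 log2 (adjusted p from 0.0243 to 0.985).

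Bbc3 (chr7:16309583-16318334), which encodes the BH3-only protein Puma, was at 29.7, 25.8 and 26.7 CPM in shNT, 16.9, 26.2 and 25.6 in shMtfr1l, 33.1, 29.4 and 28.6 in shOpa1, and 33.8, 24.2 and 28.7 with both hairpins. The groups overlapped apart from shMtfr1l and shOpa1, and against shNT the gene was called in none. Its difference from shNT was -0.26 log2 in shMtfr1l (95% interval -0.54 to 0.02), 0.15 in shOpa1 (-0.13 to 0.43) and 0.08 with both hairpins (-0.20 to 0.36).

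Pmaip1, which encodes the BH3-only protein Noxa, was close to the low end of what was tested. It was at 4.40, 7.41 and 6.14 CPM in shNT, 3.33, 6.54 and 6.50 in shMtfr1l, 2.67, 3.95 and 2.96 in shOpa1, and 2.24, 4.67 and 3.92 with both hairpins, from 54 to 172 counts per library. The shOpa1 libraries lay below all shNT libraries, and those of the double knockdown overlapped with shNT. Pmaip1 fell by 0.91 log2 in shOpa1 (SE 0.31, 1.88-fold, adjusted p = 0.0214). That call was lost without shNT replicate 2 (adjusted p = 0.132) or 3 (0.0577) and without shOpa1 replicate 1 (0.0897) or 3 (0.0651). In the double knockdown the difference of -0.73 ± 0.30 log2 (SE) was not called (adjusted p = 0.0765), but passed with the replicate number as a block (adjusted p = 0.0397), without shNT replicate 1 (0.0442) and without replicate 2 of the double knockdown (0.0468). Over all alternatives it ran from -0.96 to -0.48 log2 (adjusted p from 0.0397 to 0.339).

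Sesn1 (chr10:41810574-41908436) encodes sestrin 1, a stress-induced inhibitor of the growth kinase complex mTORC1. It was at 40.4, 44.0 and 38.5 CPM in shNT, 44.9, 40.8 and 38.8 in shMtfr1l, 24.3, 20.4 and 23.3 in shOpa1, and 31.5, 29.0 and 29.6 with both hairpins. As with Cdkn1a, the double knockdown stood between shOpa1 and the others, here from below. Sesn1 fell by 0.86 log2 in shOpa1 (SE 0.10, 1.81-fold, adjusted p = 2.22e-08) and by 0.45 log2 in the double knockdown (SE 0.10, 1.36-fold, adjusted p = 0.000948). Its relative Sesn2, one of the repair and metabolism targets given further on and also a target of the amino acid stress factor Atf4, went the other way and rose by 0.68 log2 in shOpa1 (adjusted p = 2.67e-08).

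Trp53inp1 (chr4:11156441-11174377) encodes a stress-induced nuclear protein that helps p53 towards its death targets and takes part in autophagy. It was at 111.1, 124.0 and 122.3 CPM in shNT, 113.6, 97.8 and 112.8 in shMtfr1l, 98.0, 94.7 and 107.7 in shOpa1, and 87.8, 93.2 and 108.2 with both hairpins. Both Opa1 groups lay below all shNT libraries. Trp53inp1 fell by 0.25 log2 in shOpa1 (SE 0.07, 1.19-fold, adjusted p = 0.00914) and by 0.31 log2 in the double knockdown (SE 0.07, 1.24-fold, adjusted p = 0.00206). The call in shOpa1 was lost without shNT replicate 2 (adjusted p = 0.0553) and without shOpa1 replicate 2 (0.0574), and that in the double knockdown without replicate 2 of every group (0.0659).

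The state of the culture differed between the groups too. The summed level of 8 cardiomyocyte markers, most of it from Tnnt2, was 2455 to 2514 CPM in shNT. It was 3382 to 3666 CPM in shMtfr1l, 1482 to 1652 in shOpa1 and 2014 to 2074 with both hairpins. Against shNT, 6 of the 8 were called higher in shMtfr1l and 7 of the 8 lower in shOpa1. In the double knockdown 2 were called higher and 3 lower, with Myh6 up by 0.77 log2 and Tnnt2 down by 0.36 log2. Called cardiomyocyte markers thus went in opposite directions in shMtfr1l and shOpa1, and in both directions with both hairpins. Fibroblast markers moved as well, with 4 of the 8 called lower against shNT in each knockdown group and 2 called higher with shOpa1 alone and 1 in each of the other knockdown groups. Tcf21, a transcription factor of cardiac fibroblasts, was at -0.52 log2 in shMtfr1l, -0.59 in shOpa1 and -0.68 with both hairpins, and the matrix gene Lum at -0.51, -0.79 and -0.75. The receptor gene Pdgfra fell by 0.66 log2 in shOpa1 (adjusted p = 8.63e-11), whereas the collagen gene Col3a1 fell by 0.67 log2 in shMtfr1l (adjusted p = 9.57e-17) and rose by 0.44 log2 in shOpa1 (adjusted p = 5.6e-13). The sum of 5 macrophage markers was 247 to 353 CPM in shNT, 127 to 452 in shMtfr1l, 219 to 516 in shOpa1 and 493 to 643 with both hairpins. Of these, C1qa was called higher in shOpa1 (1.49 log2, adjusted p = 0.0239) and with both hairpins (1.62 log2, adjusted p = 0.02), and the other 4 were not called. The sum of 4 smooth muscle markers was 4055 to 4431 CPM in shNT and 3305 to 3750 in the other 9 libraries, and that of 5 endothelial markers was 40.1 to 57.9 CPM in the 12 libraries. Within the endothelial sum, called markers went in opposite directions. Kdr was at 1.11 log2 and Tek at -0.67 log2 in shMtfr1l against shNT, and at -0.79 and 0.50 log2 in shOpa1. The other 3 were not called in either. No marker of these lists was at 0 in all libraries of a group, and the part of cell composition in the p53 results was not tested.

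The double knockdown was next compared with each single knockdown. The groups compared differ in the second hairpin and also in how far the first target was reduced. Mtfr1l was at 27.2 CPM in the double knockdown and 16.4 CPM in shMtfr1l, and the part of this difference was not tested. Against shMtfr1l, 2 of the 10 genes were higher (Mdm2 and Cdkn1a; 9.72% of all tested genes) and 2 were lower (Ccng1 and Sesn1; 11.7% of all). Mdm2 rose by 0.38 ± 0.06 log2 (SE, 1.30-fold, adjusted p = 1.88e-05) and Cdkn1a by 0.22 ± 0.05 (1.16-fold, adjusted p = 0.000762). Ccng1 fell by 0.36 log2 (SE 0.05, 1.28-fold, adjusted p = 1.58e-07) and Sesn1 by 0.47 log2 (SE 0.10, 1.38-fold, adjusted p = 0.000637). Bax was 0.21 ± 0.08 log2 from shMtfr1l and not called (adjusted p = 0.0711), but was called higher with the replicate number as a block (adjusted p = 0.032) and without replicate 3 of the double knockdown (0.011). Bbc3, at 0.34 ± 0.14 log2 (adjusted p = 0.0772), was called higher without shMtfr1l replicate 2 (0.0327) or replicate 2 of the double knockdown (0.0258). Trp53inp1, at -0.17 ± 0.08 log2 (adjusted p = 0.115), was called lower without shMtfr1l replicate 2 (0.0364) or replicate 3 of the double knockdown (0.0204). Other alternatives went the other way. Over all of them adjusted p ran from 0.00416 to 0.322 for Bax, 0.0213 to 0.924 for Bbc3 and 0.0204 to 0.713 for Trp53inp1. The Bbc3 difference went as low as 0.03 log2 and that of Trp53inp1 was at its smallest -0.07 log2. The Cdkn1a call was lost without replicate 2 of every group (0.0518).

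Against shOpa1, 1 of the 10 was higher in the double knockdown (Sesn1; 2.31% of all tested genes) and 1 was lower (Cdkn1a; 2.46% of all). Sesn1 rose by 0.41 ± 0.10 log2 (SE, 1.33-fold, adjusted p = 0.0144) and Cdkn1a fell by 0.17 log2 (SE 0.05, 1.13-fold, adjusted p = 0.023), so both stood nearer to shNT than in shOpa1 alone, and the libraries of the groups did not overlap. Opa1 itself was also nearer to its shNT level there (18.3 against 8.96 CPM), and the part of the weaker knockdown in this difference was not tested. Mdm2 and Ccng1 did not follow, at -0.02 log2 (95% interval -0.15 to 0.10) and 0.01 log2 (-0.08 to 0.11). Both calls depended on single libraries. The Cdkn1a call was lost without shOpa1 replicate 1 (adjusted p = 0.111) or 2 (0.0878) and without replicate 1 (0.0925) or 3 (0.157) of the double knockdown. The Sesn1 call was lost without shOpa1 replicate 2 (0.119) and without replicate 1 of the double knockdown (0.0764).

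The interaction of the knockdowns, the effect of shOpa1 in the presence of shMtfr1l minus its effect alone, was called for none of the 10 genes, with 1.57% of all tested genes called higher and 1.99% lower. At an unadjusted p under 0.05 there were 2 of the 10, Cdkn1a and Sesn1. For Cdkn1a it was -0.21 ± 0.07 log2 (SE, 95% interval -0.35 to -0.07, adjusted p = 0.0806), and DESeq2 called it (adjusted p = 0.0216). For Sesn1 it was 0.39 ± 0.15 log2 (95% interval 0.09 to 0.68, adjusted p = 0.149). For Mdm2 and Ccng1 the intervals were -0.12 to 0.24 and -0.02 to 0.25.

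The first set offered a second look at shMtfr1l, with 1 sample of each hairpin and 3 count columns per sample, which were summed and are given without a test. The columns of a sample differed by a chi-square of 4.36 to 7.52 per gene, where the libraries within a group of the second set differed by 5.37 to 10.29, so their spread does not tell whether they are separate cultures. Its tables were scaled by themselves, so levels are not set against those of the second set. Mtfr1l stood at 79.2 CPM with shNT and at 8.73 CPM with shMtfr1l, a 9.07-fold difference where the second set had 4.38-fold. Trp53inp1 was at 150 CPM in shNT (columns 139 to 159, 95% Poisson interval 147 to 153). In shMtfr1l it was at 96.7 CPM (columns 89.8 to 100.2, interval 94.3 to 99.1). These Poisson intervals hold counting error only and treat the mates of a read pair as independent counts, so they are too narrow. The log2 ratio of Trp53inp1 was -0.64, below the 95% interval of the second set (-0.29 to 0.01). Cdkn1a was at 625 CPM in shNT (columns 609 to 639) and 523 CPM in shMtfr1l (columns 513 to 543), a log2 ratio of -0.26, also below the interval of the second set (-0.06 to 0.13). Bax was at 128 CPM in shNT (columns 123 to 135) and 97.8 CPM in shMtfr1l (columns 93.5 to 106), a log2 ratio of -0.39. Bax lay lower in shMtfr1l in both sets, as did Mdm2, Cdkn2a, Ccng1, Pmaip1 and Trp53inp1. The signs of the sets differed for Cdkn1a, Bbc3, Trp53 and Sesn1. When the first set was scaled by column totals alone, the log2 ratios of Sesn1 and Ccng1 were 0.04 and 0.03. The signs of Sesn1 and Ccng1 there thus depend on the scaling. Mdm2 was at 149 and 133 CPM, a log2 ratio of -0.16.

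The other 6 members were compared between the 2 samples in the same way. Trp53 had 67.7 CPM with shNT against 70.6 CPM with shMtfr1l, and Ccng1 had 663 against 650 CPM. Sesn1 was at 45.9 and 45.6 CPM and Bbc3 at 25.4 and 27.0 CPM. The log2 ratio of Bbc3, 0.09, lay above the interval of the second set (-0.54 to 0.02). The intervals of the second set hold its own error only, and the error of the first-set ratios was not measured. Pmaip1 was at 8.45 CPM in shNT (columns 7.16 to 9.29) and 6.29 CPM in shMtfr1l (columns 5.22 to 7.67), and Cdkn2a at 5.56 and 5.32 CPM. The columns of the 2 samples overlapped for Trp53, Ccng1, Sesn1, Pmaip1 and Cdkn2a, and not for Bbc3, Mdm2, Cdkn1a, Bax and Trp53inp1. How often columns do not overlap among all genes was not computed, so no result about these genes is read from it. The median log2 ratio of all 15198 genes kept was 0.0002, and the labelled knockdown of Mtfr1l in the shMtfr1l sample used here is 85%.

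**Figure D3:**
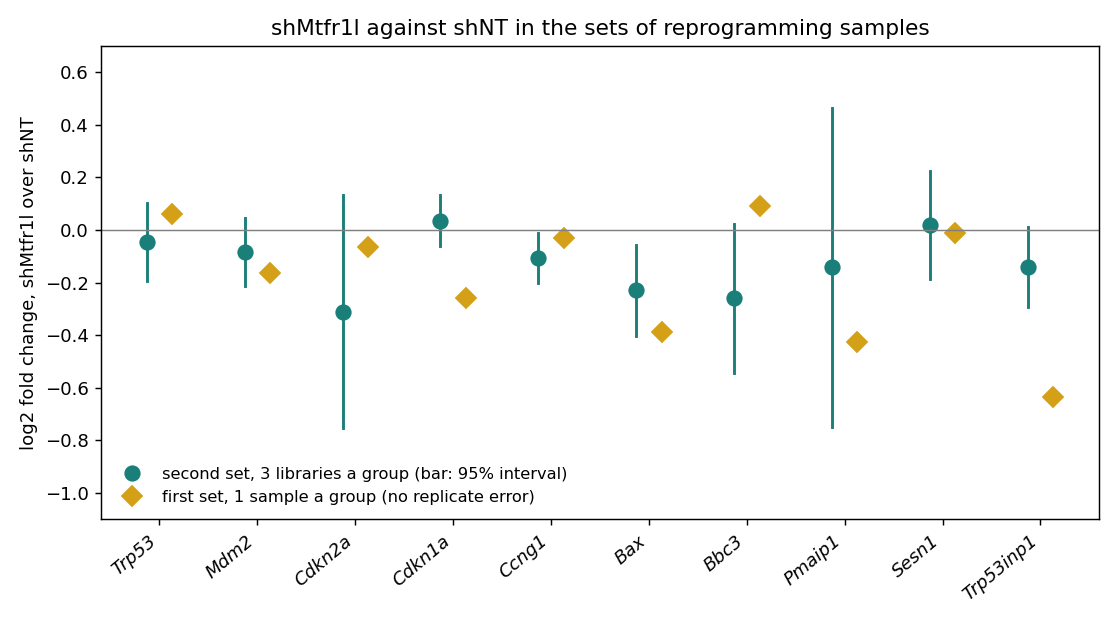
Log2 fold change of each gene in shMtfr1l over shNT (y axis) in the second set (circles with 95% intervals, 3 libraries a group) and in the first set (diamonds, 1 sample a group, 3 columns summed, no error shown). Trp53inp1, Bax and Pmaip1 have the lowest diamonds, at -0.64, -0.39 and -0.43, and Cdkn1a has a diamond at -0.26 beside a circle at 0.04.

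Further genes of the pathway were taken from 7 lists by role that hold none of the 10 genes, with 97 tested genes in all. In shOpa1 against shNT 27 of the 97 rose and 20 fell, and 33 of these 47 calls were kept whichever of the 6 libraries was left out. By role, 6 of 10 tested arrest targets of p53 rose and 3 fell, with a median of 0.39 log2 where all tested genes had 0.01 (14.3% of all were called higher and 15.1% lower). Btg2, an antiproliferative cofactor, rose by 0.74 ± 0.06 log2 (SE, adjusted p = 5.43e-12), from 115 ± 1.32 CPM in shNT to 192 ± 20.5. Zmat3, an RNA-binding p53 target, rose by 0.38 ± 0.06 (adjusted p = 8.94e-06), and Gtse1, which shuttles p53 out of the nucleus in G2, rose by 0.50 ± 0.11 (adjusted p = 0.000308). The 3 that fell were Ptprv, Gadd45a and Ccng2, at -0.63, -0.48 and -0.34 log2, named here after their values were seen. The direction was mixed within the list, as among the 10 genes.

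Of 14 tested death targets, 4 rose and 5 fell in shOpa1, with a median of -0.07 log2. Of all tested genes, 14.3% were called higher and 15.1% lower. Perp, a desmosomal protein and p53 effector, fell by 2.22 log2 (SE 0.24, adjusted p = 2.12e-09), from 10.6 ± 2.53 to 2.27 ± 0.322 CPM. Eda2r fell by 0.79 log2 (SE 0.07, adjusted p = 2.04e-11), from 110 ± 4.21 to 63.3 ± 1.53 CPM, and Trp53i11 fell by 1.07 log2 (adjusted p = 8.72e-06). The others that fell, named after their values were seen, were the death receptors Fas and Tnfrsf10b at -0.39 and -0.28 log2, and those that rose were Apaf1, Aen, Ei24 and Bak1, at 0.40, 0.35, 0.23 and 0.21 log2. Called genes thus lay on both sides of 0 here too, as they did over all tested genes.

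Of 20 tested repair and metabolism targets, 3 rose and 5 fell in shOpa1, with a median of -0.002 log2. Beside these and the control genes that follow stand 14.3% of all tested genes called higher and 15.1% called lower. Ddit4, an inhibitor of mTORC1, fell by 1.05 log2 (SE 0.10, adjusted p = 1.75e-10), from 51.3 ± 2.31 to 24.8 ± 0.424 CPM. Sesn2 rose from 43.6 ± 1.79 to 70.0 ± 3.62 CPM, and Sulf2, a heparan sulfate sulfatase, rose by 0.42 ± 0.05 log2 (adjusted p = 1.13e-07). Of 14 tested genes that control p53, 4 rose and 2 fell, with a median of 0.05 log2. The kinases Hipk2 and Chek2, which phosphorylate p53, fell by 0.87 log2 (adjusted p = 1.35e-07) and 0.72 log2 (adjusted p = 0.00254), and the damage kinase Atm rose by 0.39 log2 (adjusted p = 0.00358). Of these control genes, 2 rather than 4 were called higher without shNT replicate 1 or shOpa1 replicate 2 or 3, and of the repair and metabolism targets 3 rather than 5 were called lower without shNT replicate 2 or shOpa1 replicate 1.

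The Bcl2 family list held 2 higher and 2 lower of 10 tested in shOpa1, with a median of -0.09 log2. Beside this list and those that follow stand 14.3% of all tested genes called higher and 15.1% called lower. Bmf and Bok, which promote death, fell by 0.96 log2 (adjusted p = 4.14e-06) and 0.43 log2 (adjusted p = 0.00069), and Bcl2l2, which protects, rose by 0.38 log2 (adjusted p = 5.4e-05), as did Bcl2l1 by 0.26 log2 (adjusted p = 0.00219). Of the 5 other cyclin-dependent kinase inhibitors, none rose and 2 fell, Cdkn1c by 0.61 log2 (adjusted p = 0.0046) and Cdkn2b by 0.36 log2 (adjusted p = 0.0343; the call was kept without shOpa1 replicate 2 and lost without any other 1 library of the pair of groups), so of these 5, Cdkn2a and Cdkn1a, the 1 called higher was Cdkn1a. Of 24 cell cycle genes that p21 is known to hold down through the retinoblastoma and DREAM complexes, 8 rose and 1 fell, with a median of 0.22 log2. The replication licensing genes Mcm5, Mcm2 and Mcm3 rose by 0.67, 0.57 and 0.47 log2 (adjusted p = 6.04e-07, 9.4e-06 and 1.86e-05), and Ccne2, named after its value was seen, was the 1 that fell, at -0.45 log2. The count of 8 was 4 without shOpa1 replicate 3 and 5 without shOpa1 replicate 1 or shNT replicate 3. Those called whichever library was left out were Mcm2, Mcm3, Mcm5 and, named after its value was seen, Cdk2, while the Ccne2 call was lost without shNT replicate 1 or 2 or shOpa1 replicate 1 or 2. Mki67, a marker of cycling cells, was at 106 CPM in shNT and 105 CPM in shOpa1 (adjusted p = 0.966). The cardiomyocyte marker sum of 1482 to 1652 CPM in shOpa1 against 2455 to 2514 in shNT goes beside all of these lists, and its part in them was not tested.

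**Figure D4:**
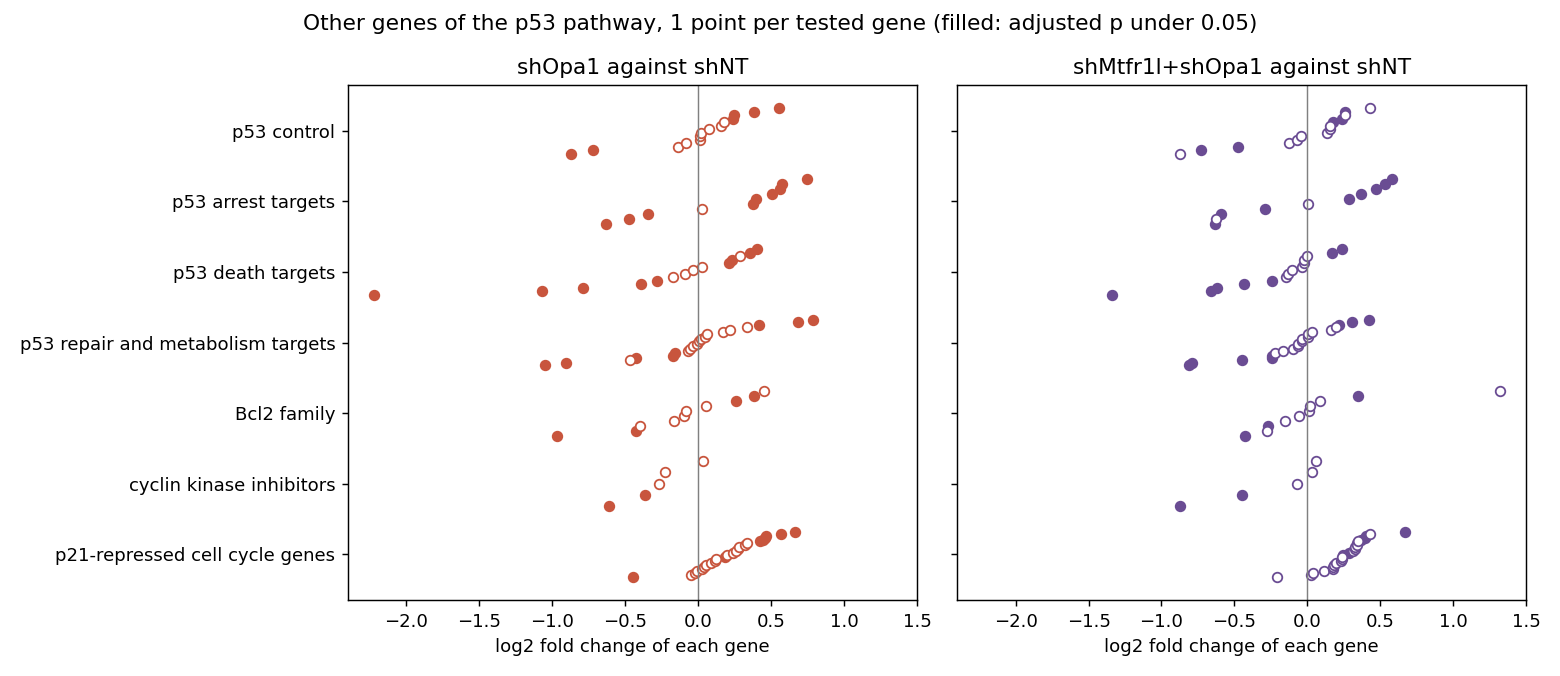
Log2 fold change (x axis) of each tested gene of the 7 lists, 1 point per gene, in shOpa1 and with both hairpins against shNT; filled points passed an adjusted p of 0.05. Called genes lie on both sides of 0 in the lists of p53 targets, and Perp is the leftmost point in both panels at -2.22 and -1.34.

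In the double knockdown against shNT, where 11.2% of all tested genes were called higher and 11.9% lower, the lists gave these counts: arrest targets 5 higher and 3 lower, death targets 2 and 5, repair and metabolism targets 3 and 5, control genes 3 and 2, the Bcl2 family 1 and 2, other kinase inhibitors 0 and 2, and p21-repressed genes 7 and 0. Their medians were 0.15, -0.12, -0.05, 0.14, -0.02, -0.07 and 0.26 log2 in that order, beside 0.004 for all tested genes. Of these 40 calls 20 were kept whichever of the 6 libraries was left out, and 27 to 34 genes were called without 1 library. The p21-repressed genes called were 4 without replicate 1 and 3 without replicate 3 of the double knockdown. Btg2 rose by 0.58 ± 0.06 log2 (adjusted p = 5.53e-09), Eda2r fell by 0.62 log2 (adjusted p = 1.4e-08), Perp by 1.34 log2 (adjusted p = 2.41e-05), Ddit4 by 0.79 log2 (adjusted p = 1.61e-07) and Cdkn1c by 0.87 log2 (adjusted p = 0.000133). Mcm5 rose by 0.67 ± 0.09 log2 (adjusted p = 9.11e-07). Zmat3, which rose in shOpa1, was at 122 ± 7.31 CPM in shNT and 123 ± 0.555 CPM in the double knockdown, and fell by 0.37 log2 against shOpa1 (adjusted p = 0.000134).

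Between the double knockdown and shOpa1, 3 of the 97 list genes were higher (2.31% of all tested genes) and 6 were lower (2.46% of all), together 9.28% of the lists beside 4.77% of all genes. Zmat3, Apaf1 and Sesn2 were the 3 whose calls were kept whichever of the 6 libraries was left out, with Apaf1 lower by 0.44 log2 (adjusted p = 0.000649) and Sesn2 by 0.38 log2 (adjusted p = 0.00313). Ei24 fell by 0.26 log2 (adjusted p = 0.00406), and its call was lost without shOpa1 replicate 2 or replicate 1 of the double knockdown. Perp rose by 0.89 log2 (adjusted p = 0.0256), Bmf by 0.54 log2 (adjusted p = 0.0319) and Hipk2 by 0.40 log2 (adjusted p = 0.0319). The calls of these 3 rest on single libraries. That of Perp was kept in 2 of the 6 fits without 1 library, that of Bmf in 1 and that of Hipk2 in 3, and Hipk2 was also lost with the replicate number as a block (adjusted p = 0.0617). In all 6 genes with values here the level in the double knockdown was nearer to shNT than that in shOpa1. Opa1 itself was at 18.3 CPM in the double knockdown and 8.96 CPM in shOpa1, and the part of the weaker knockdown in these list genes was not tested. None of the 5 other kinase inhibitors and none of the 24 p21-repressed genes was called in this comparison, with 1 of the 24 called higher by DESeq2.

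Against shMtfr1l, 20 of the 97 list genes were higher in the double knockdown (9.72% of all tested genes) and 10 were lower (11.7% of all). Mtfr1l itself was less reduced in the double knockdown, and the part of this in the list counts was not tested. The counts were 4 higher and 1 lower for arrest targets, 4 and 3 for death targets, 3 and 3 for repair and metabolism targets, 2 and 1 for control genes, 2 and 1 for the Bcl2 family, 0 and 1 for the other kinase inhibitors and 5 and 0 for p21-repressed genes. Plk2, a p53-induced polo-like kinase, rose by 0.44 ± 0.09 log2 (SE, adjusted p = 0.000189), Btg2 by 0.33 ± 0.06 (adjusted p = 0.000135), Apaf1 by 0.42 ± 0.08 (adjusted p = 0.000269), Bcl2l1 by 0.36 ± 0.07 (adjusted p = 5.58e-05) and Mcm5 by 0.48 ± 0.09 (adjusted p = 0.000157). Those that fell included Ccng2 by 0.70 log2 (adjusted p = 3.05e-06), Eda2r by 0.68 log2 (adjusted p = 1.39e-09) and Bmf by 0.84 log2 (adjusted p = 4.05e-05). Each of these 8 calls was kept whichever library was left out, as were 17 of the 30 in all. The 5 p21-repressed genes were 2 without shMtfr1l replicate 3, and 1 and 3 without replicates 1 and 3 of the double knockdown.

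In shMtfr1l against shNT, where none of the 10 genes was called, 4 of the 14 death targets fell and none rose, with a median of -0.11 log2 beside 0.003 for all tested genes, of which 5.56% were called higher and 5.19% lower. Apaf1 fell by 0.45 log2 (SE 0.08, adjusted p = 0.00022), from 50.1 ± 3.40 to 36.6 ± 1.13 CPM. Bid, which links death receptors to mitochondria, fell by 0.51 log2 (adjusted p = 0.0074), Siva1 by 0.35 log2 (adjusted p = 0.0461) and Phlda3, named after its value was seen, by 0.17 log2 (adjusted p = 0.0471). With the replicate number as a block 2 of the 14 were called, as without shNT replicate 1 or 3 or any 1 shMtfr1l library, and Siva1 was lost without each of the 6 libraries. Apaf1, the core of the apoptosome, was thus lower in shMtfr1l and higher in shOpa1 than in shNT.

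Of the other lists in shMtfr1l, 2 arrest targets rose (Ccng2 by 0.42 log2, adjusted p = 0.00669, and Btg2 by 0.25 log2, adjusted p = 0.00685) and 2 fell (Zmat3 by 0.28 log2, adjusted p = 0.00275, and Ptprv by 0.68 log2, adjusted p = 0.0043). Of the repair and metabolism targets none rose and 3 fell: Gpx1, a glutathione peroxidase, by 0.36 log2 (adjusted p = 0.000107), Ddit4 by 0.43 log2 (adjusted p = 0.00296) and Ak1 by 0.21 log2 (adjusted p = 0.0112). Bcl2l1, which encodes the protective protein Bcl-xL, fell by 0.28 log2 (adjusted p = 0.00325) and was the 1 Bcl2 family gene called. Mcm3 was the 1 p21-repressed gene called (0.24 log2, adjusted p = 0.0496) and lost the call with the replicate number as a block, which left 0 of the 24, and without any 1 library but shMtfr1l replicate 3. Ccng2 lost its call without shNT replicate 1 or shMtfr1l replicate 3. Over the 97 genes 13 were called, 13.4% beside 10.8% of all tested genes. By direction 3.09% were higher and 10.3% lower, beside 5.56% and 5.19% of all tested genes. Of these 13 calls 6 were kept whichever library was left out. No control gene and no other kinase inhibitor was called.

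The levels of the 10 genes over the 12 libraries fell into opposite patterns. Pearson's r of log2 CPM was 0.90 between Cdkn1a and Mdm2, -0.95 between Cdkn1a and Sesn1, -0.89 between Cdkn1a and Ccng1, and 0.86 between Ccng1 and Sesn1. Trp53 was between -0.32 and 0.38 with every other member. Likeness was searched among 10868 tested genes that averaged 5 CPM or more. Those most like Cdkn1a were Hsph1 (r = 0.98), a heat shock protein, Mfsd10, Tmed9, Rras2 and Mcfd2 (each 0.98). Those most like Mdm2 were Csf1 (0.97), the growth factor of macrophages, Serpinb9b, Wdr1, Limk1 and Chfr (each 0.97). For Trp53 the nearest were Gdf11 (0.83), 2810428I15Rik, Ybx1, Hras1 and Ntmt1, at lower values. The 12 points hold 4 groups, so these values describe mainly the differences between groups, and no test was made.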

How the data were processed

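The authors deposited raw counts per gene, made per the file headers with featureCounts 2.0.6 in strand-specific mode on the UCSC annotation of mm10. Read pairs were not counted as pairs, so each mate counted by itself (65.86% of counts from 1 to 20 were even), and reads that mapped to several places or several genes were left out. The submitters' processing notes also list FastQC and DESeq2. For the aligner, the name is not given in the sources. Libraries had 16205862 to 25317069 counts, so the floor of 3 counts lay between 0.118 and 0.185 CPM. This floor and the Poisson intervals cover counting error only, since PCR reads without molecular identifiers are not independent molecules. The mates of a read pair are not independent either, so the Poisson intervals are too narrow even for counting error. No 2 libraries agreed within sampling noise (chi-square per gene 5.37 to 10.29 within groups).

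Genes were filtered with filterByExpr, scaled with TMM and compared with edgeR 4.0.16 (quasi-likelihood test, robust option, 1 term for each group, leaving 8 residual degrees of freedom) under R 4.3.3. The robust option was taken after counts of calls over all genes had been seen with and without it. Of 23420 genes 14162 were tested, with a common biological coefficient of variation of 12.04%. Per-library log2 CPM values have a prior count of 2. DESeq2 1.42.0 served as an alternative, beside its size factors, no filter, only the groups compared, the replicate block, halved counts, and leaving out libraries.

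Replicate numbers go with labelled days 7, 8 and 9, so they pair the libraries by label. Same-numbered libraries had deviations that correlated between -0.19 and 0.12 (18 pairs), and others between -0.14 and 0.19.

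The 10 genes and the lists were chosen with earlier results of these data known. By rule the text names all 10, up to 3 called genes per list and comparison with the smallest adjusted p, and the 5 genes most like Trp53, Cdkn1a and Mdm2. Mdm4, Ppm1d, Mki67 and the genes said to be named after their values were seen, and Bcl2l1 and Ccne2 in shOpa1, Btg2 in shMtfr1l and Sulf2 in the interaction, lie outside it. Of the first set, 12 count columns could not be tied to a sample and were not used. Promoter sequences are RefSeq's (GRCm38.p6), matched by symbol for 8 of the 10 genes.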

Additional observations from a re-analysis of the deposited data

Results flagged for a closer look

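No member of the 10 had an effect of 1 knockdown that differed with the other past the threshold, but 6 of the 97 tested genes of the wider p53 lists (2 higher and 4 lower, 6.19% beside 3.56% of all tested genes) and Mtfr1l did (interaction in edgeR). The effect of shOpa1 on Btg2 was 0.74 log2 alone and 0.33 with shMtfr1l, a difference of -0.42 (adjusted p = 0.00393). For Ddit4 it was -1.05 alone and -0.36 with shMtfr1l, a difference of 0.69 (adjusted p = 0.0029). For Aldh4a1 it was 0.79 alone and 0.15 with shMtfr1l, a difference of -0.64 (adjusted p = 0.0242). For Ei24 it was 0.23 and -0.08, a difference of -0.31 (adjusted p = 0.0222), and for Sulf2 0.42 and 0.14, a difference of -0.28 (adjusted p = 0.0358). The calls of Btg2 and Ddit4 were kept whichever of the 12 libraries was left out. That of Ei24 was kept in 8 of these 12 fits, those of Aldh4a1 and Gpx1 in 6 and that of Sulf2 in 4, and Sulf2 was also lost with the replicate number as a block (adjusted p = 0.0554). In Btg2, Ddit4, Aldh4a1, Ei24 and Sulf2 the effect of shOpa1 was closer to 0 when shMtfr1l was present. For Gpx1 it was -0.07 alone and 0.25 with shMtfr1l, a difference of 0.33 (adjusted p = 0.0297). The effect of shMtfr1l on Mtfr1l itself was -2.13 log2 alone and -1.35 with shOpa1, a difference of 0.78 (adjusted p = 0.00146), and the part of the weaker knockdowns in the other 6 was not tested. Groups of 3 libraries are too small for a search for outlying libraries.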

How the results depend on the processing

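No called change of a member reversed under any alternative. The calls of Cdkn1a, Mdm2, Ccng1 and Sesn1 in shOpa1 and in the double knockdown against shNT held under all 16 alternatives run for each. The count of members called in shMtfr1l against shNT was 0, and 1 (Bax) with DESeq2, with no filter on low counts, with only the groups compared and with the replicate block, and 0 to 1 with libraries left out. The interaction had 0, and 1 (Cdkn1a) with DESeq2. Against shOpa1, the double knockdown had 2 members called, and 0 to 2 with libraries left out. Over the alternatives, the interaction of Cdkn1a had adjusted p from 0.0216 to 0.29, and Bax in shMtfr1l from 0.00348 to 0.42. The replicate block changed no other call of a member than those of Bax and Pmaip1 given above, and edgeR without the robust option, chosen after seeing the data, changed none. The cause of these changes was not tested. Among low genes, Pmaip1 and Cdkn2a had 54 to 228 counts per library, which limits what their changes can show.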
